A study of Homo sapiens with 6 samples.

Results

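The genes described here are 10 components of the N6-methyladenosine (m6A) machinery of RNA, namely the writers Mettl3, Mettl14 and Wtap, the erasers Alkbh5 and Fto, and the YTH-domain readers Ythdf1, Ythdf2, Ythdf3, Ythdc1 and Ythdc2. They were chosen by name, and 10 of the 10 were found by an exact match of the symbol among the 22989 genes of the count table. All 10 were tested. RNA was sequenced from 3 libraries labelled LINC00115 KD and 3 libraries labelled WT, called control here. In both groups the cells are described as paclitaxel (PTX)-resistant breast cancer stem-like cells (BCSC) of MDA-MB-231, an established human line of triple-negative breast cancer, sorted in the study for aldehyde dehydrogenase activity. In the KD group an shRNA, a short hairpin RNA, targets the long non-coding RNA LINC00115, and the study examines ALKBH5 and YTHDF2 in relation to the stability of that RNA, so the comparison asks whether transcripts of the m6A machinery differ between the groups.

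m6A is a methyl mark on adenosines inside mRNAs and non-coding RNAs. METTL3 carries the catalytic activity that places it, METTL14 is its partner in RNA binding, and WTAP anchors the pair in a larger complex, while ALKBH5 and FTO remove the mark by oxidation. Proteins with a YTH domain bind the methylated base: YTHDF1, YTHDF2 and YTHDF3 are close paralogs in the cytoplasm, YTHDC1 acts in the nucleus, and YTHDC2 is an RNA helicase.

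Several properties of the libraries bear on every value below. Of the 22989 symbols, 16 equal a human symbol as written and 62.7% equal one apart from case. Another 4648 symbols are Gm names and 1135 are Rik names, which belong to mouse genes and not to a way of writing human ones. The gene names are therefore those of a mouse annotation, although the labels call the cells human and the sources name human genome builds. Which genome the reads were mapped to, and whether the RNA was human or mouse, could not be settled here. The values below are thus not established as measurements of human transcripts. The 10 members are printed as the table gives them. The number of symbols reading LINC00115 was 0, so the knockdown was not checked here and each direction rests on the labels. The KD columns are named sh115-1 to sh115-3, and the study uses the first pair of these names for different hairpins. Its plot of this comparison is described as made with sh115-2, while the labels do not say whether the KD libraries share 1 hairpin. Since the only control is labelled WT, the loss of LINC00115 and a response to the hairpin or its vector cannot be told apart. Library totals lay between 36979221 and 38799331 counts. The 6 genes listed as typical of a mesenchymal triple-negative line (Vim, Cd44, Axl, Cav1, Msn, S100a4) summed to 6870 to 6948 normalized CPM (counts scaled to a common library total) in the controls and 6883 to 7045 in KD. Behind these like sums, 3 of the 6 (Vim, Axl and Cav1) lay above and 1 below the control range, with S100a4 at 749 to 817 normalized CPM in the controls and 329 to 356 in KD. Of the 9 luminal or HER2 markers, Pgr had at most 3 counts in any library, Epcam at most 5, Cdh1 at most 31, Foxa1 at most 53 and Esr1 at most 105. Krt8 had at least 17687, Krt18 at least 4856, Gata3 at least 1985 and Erbb2 at least 592, so these markers were not uniformly absent. Krt8 alone had 469 to 479 normalized CPM in the controls and 726 to 766 in KD. The 9 summed to 708 to 729 normalized CPM in the controls and 1043 to 1091 in KD, where 5 lay above and 1 below the control range. The 10 lung markers summed to 1.57 to 1.98 normalized CPM in the controls, where 6 of them had 0 counts in every library, among them Scgb1a1 and Sftpc, and to 74.6 to 85.9 in KD, with 10 of 10 higher in every KD library. The 10 kidney markers summed to 9.37 to 9.80 and 25.1 to 29.1 (8 of 10 higher in every KD library and 1 lower, 5 at 0 counts in the controls). The 10 leukocyte markers summed to 40.2 to 54.7 and 54.6 to 59.5 (2 higher and 1 lower without overlap), and Cd3e had 0 counts in all libraries. The part of these markers in the results on the m6A genes was not tested.

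Of the 10 members, 1 fell and 6 rose in KD at an adjusted p under 0.05, and 3 did not pass (edgeR's quasi-likelihood test over 13497 genes, Benjamini-Hochberg adjustment). The member that fell was the eraser Alkbh5. Those that rose were the eraser Fto, the writers Mettl14 and Wtap and the readers Ythdf1, Ythdf2 and Ythdc2, and those that did not pass were Mettl3, Ythdf3 and Ythdc1. In the same test 73.4% of all genes passed, 36.7% lower and 36.7% higher, so the 7 of 10 members that passed are a share near this background. None of the 10 passed the study's further requirement of a fold change over 2, a rule met by 20.2% of all genes (9.98% lower and 10.2% higher). That count of 0 also held at an unadjusted p under 0.05 and with DESeq2's Wald test. The KD and control libraries did not overlap for 7 of the 10, beside 75.6% of all genes. The median log2 fold change of the members was 0.21, beside −0.0061 for all genes tested, and the median of its absolute size was 0.32, beside 0.45. In bulk RNA, fewer cells of a kind and less RNA in each cell cannot be told apart.

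**Figure D1:**
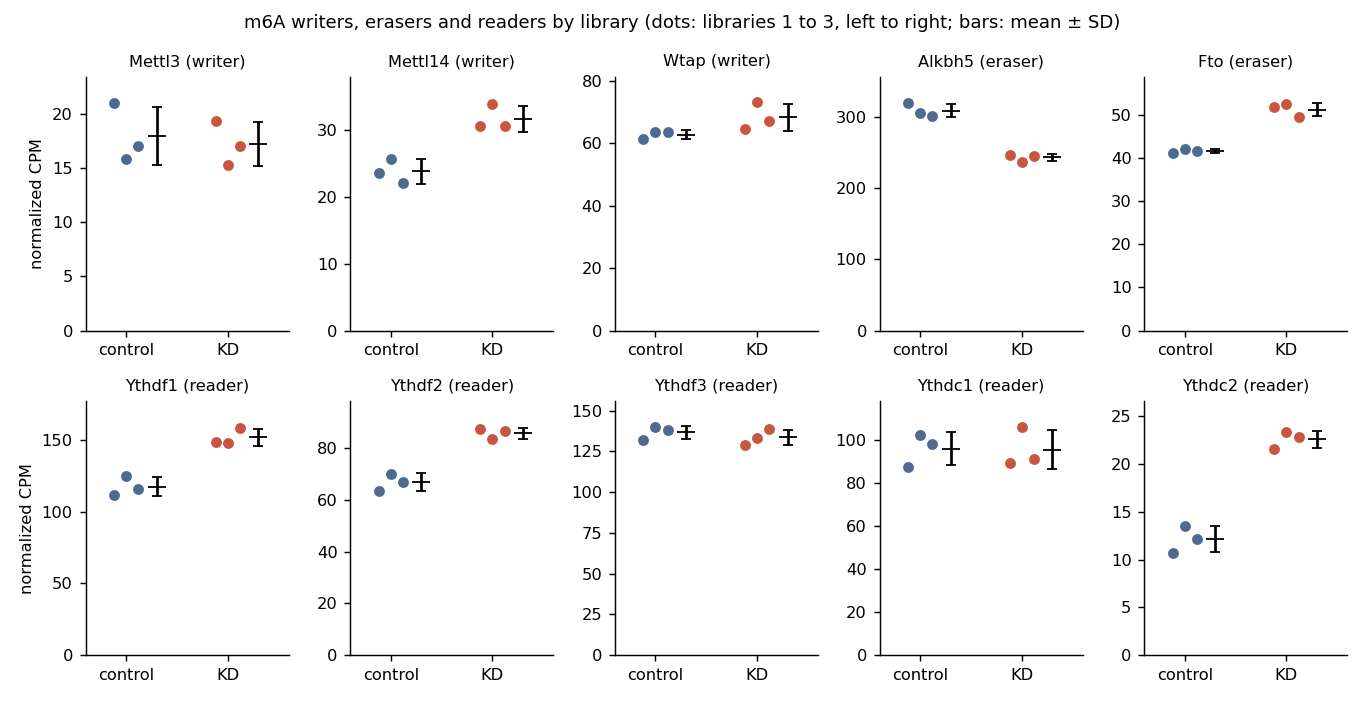
Normalized CPM (vertical axes, each from 0) of the 10 members in the 3 control and 3 KD libraries; each dot is a library and the bars give the mean ± SD of the group. The groups do not overlap for Mettl14, Wtap, Alkbh5, Fto, Ythdf1, Ythdf2 and Ythdc2, with Alkbh5 lower and Ythdc2 showing the widest relative gap, from 12.1 to 22.6 normalized CPM on average.

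Alkbh5, the eraser the study follows, was counted 12012, 11526 and 11359 times in control libraries 1 to 3 and 9527, 8699 and 9319 times in KD libraries 1 to 3. On the scale of normalized CPM, with library totals scaled by the TMM method, these were 319, 305 and 301 in the controls and 246, 237 and 245 in KD. Every KD library lay below every control library, an arrangement found in the same direction for 37.8% of all genes tested. The mean fell from 308 ± 9.46 to 243 ± 5.15 normalized CPM (SD, n = 3 libraries each), which is a log2 fold change of −0.34 (edgeR's quasi-likelihood test, adjusted p = 9.13e-11, standard error 0.035). Alkbh5 fell by 21.2%, and 60.3% of the genes tested had a larger absolute log2 fold change. The study itself reports lower ALKBH5 expression after LINC00115 knockdown, which ectopic HIF1α restored. Its text does not say whether RNA or protein was measured there, so the sizes of the changes are not compared here.

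Fto, the other m6A eraser, moved in the opposite direction. Its normalized CPM were 41.0, 42.0 and 41.6 in the control libraries and 51.8, 52.4 and 49.4 in the KD libraries, so the groups did not overlap, with KD higher (37.8% of all genes lay that way). The log2 fold change was 0.30 (edgeR's quasi-likelihood test, adjusted p = 1.44e-05, standard error 0.056), an increase of 23.2%. It did not pass when tested against a fold change of 1.2 in place of no change (adjusted p = 0.169, edgeR's glmTreat).

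Because library scaling could shift small changes such as these, the erasers were also compared as a ratio of raw counts within each library, which no scaling affects. Fto had 12.9, 13.8 and 13.8 counts per 100 counts of Alkbh5 in the controls and 21.0, 22.1 and 20.1 in KD. The ratio was higher in 3 of 3 KD libraries than in any control, by 0.64 on the log2 scale, 1.56-fold (exact permutation test, two-sided, p = 0.1, the smallest that 3 libraries against 3 allow; 0.167 adjusted over the 5 ratios computed). These ratios of counts do not correct for transcript length, so they are read between libraries and not as the relative abundance of the genes. With Fto higher and Alkbh5 lower in every KD library, the separation of this ratio was fixed by the values above. Its difference restates the rise of Fto (log2 fold change 0.30) and the fall of Alkbh5 (−0.34) and is no further support. Ratios of pairs outside the members were not computed. With 75.6% of all genes free of overlap between the groups, a separated ratio here or below was not shown to be particular to its pair.

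Among the writers, Mettl14, the RNA-binding partner in the methyltransferase core, rose while the catalytic subunit Mettl3 did not pass the test. Mettl14 had 23.6, 25.7 and 22.0 normalized CPM in the controls and 30.5, 33.8 and 30.5 in KD, without overlap. Its log2 fold change was 0.41 (edgeR's quasi-likelihood test, adjusted p = 8.33e-06, standard error 0.074). Mettl3 had 20.9, 15.8 and 17.0 normalized CPM in the controls and 19.3, 15.3 and 17.0 in KD, and the groups overlapped over nearly their whole range. Of the 10 members it varied most between libraries of a group relative to its mean, which was 17.9 ± 2.69 in the controls and 17.2 ± 2.02 in KD (SD, n = 3 each). Its log2 fold change was −0.06 with a 95% interval from −0.26 to 0.14 (adjusted p = 0.597, edgeR's quasi-likelihood test), so a change as large as that of Mettl14 lay outside the interval.

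The ratio within libraries did not separate the 2 core subunits. Mettl14 had 113, 162 and 129 counts per 100 counts of Mettl3 in the controls and 158, 222 and 180 in KD, and the lowest KD library lay below the highest control. The difference of 0.47 on the log2 scale did not pass (exact permutation test, two-sided, p = 0.2; 0.25 adjusted over the 5 ratios).

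Wtap, the regulatory subunit, changed least of the members that passed. It had 61.3, 63.5 and 63.7 normalized CPM in the controls and 64.8, 73.3 and 67.2 in KD, so that the groups were separated by a narrow gap. The log2 fold change was 0.12 (edgeR's quasi-likelihood test, adjusted p = 0.0346, standard error 0.052). The call was lost without control replicate 1 (adjusted p = 0.0857) and without KD replicate 2 (adjusted p = 0.192), and also with library size alone or with upper quartile scaling (adjusted p = 0.0722 and 0.156, edgeR's quasi-likelihood test in each fit). Like Fto, Wtap also did not pass when tested against a fold change of 1.2 (edgeR's glmTreat).

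**Figure D2:**
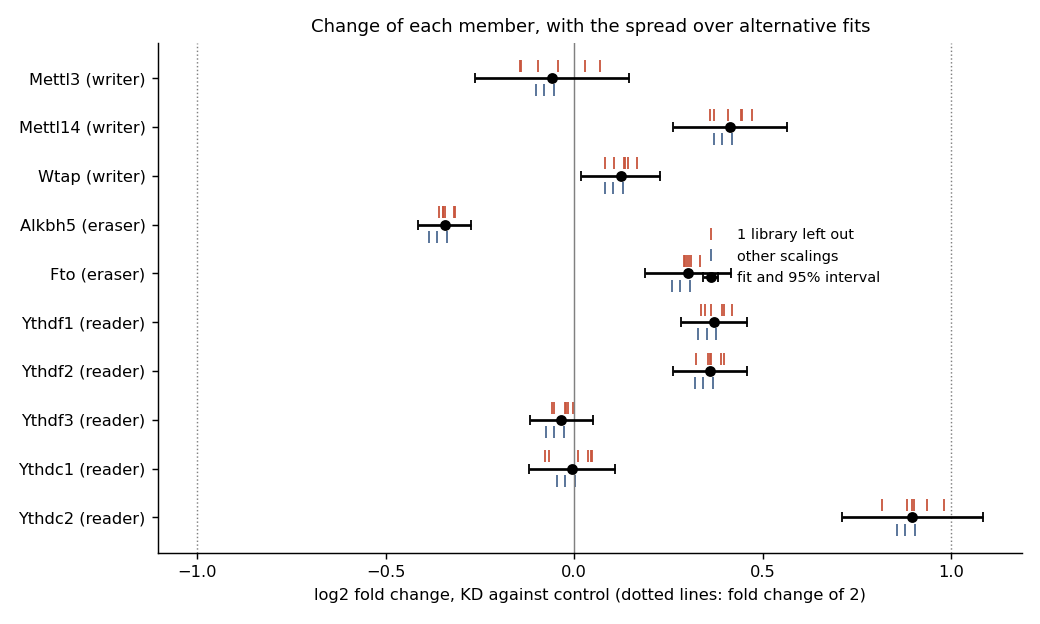
Log2 fold change of each member, KD against control (horizontal axis), as a point with its 95% interval; red ticks are the 6 fits that leave out 1 library and blue ticks the 3 other scalings, and dotted lines mark a fold change of 2. Ythdc2 lies at 0.90, Alkbh5 at −0.34 is the one member with its interval below 0, and the intervals of Mettl3, Ythdf3 and Ythdc1 include 0.

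Of the 3 cytoplasmic readers, Ythdf1 and Ythdf2 rose by similar amounts and Ythdf3 did not pass the test. YTHDF2 is the reader known to bring methylated RNAs to decay. Ythdf2 had 63.5, 70.2 and 67.1 normalized CPM in the controls and 87.4, 83.5 and 86.8 in KD, without overlap. The mean rose from 66.9 ± 3.34 to 85.9 ± 2.12 (SD, n = 3 each), which is a log2 fold change of 0.36 (edgeR's quasi-likelihood test, adjusted p = 4.81e-08, standard error 0.049). Ythdf1 had 112, 125 and 116 normalized CPM in the controls and 149, 148 and 159 in KD, again without overlap, and its log2 fold change was 0.37 (edgeR's quasi-likelihood test, adjusted p = 2.36e-09, standard error 0.043).

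Ythdf3 had 132, 140 and 138 normalized CPM in the controls and 129, 133 and 139 in KD. The groups overlapped, and its log2 fold change of −0.034 had a 95% interval from −0.12 to 0.049 (adjusted p = 0.459, edgeR's quasi-likelihood test), which lies below the intervals of both paralogs. The ratio of raw counts shows the same separation without any scaling. Ythdf3 had 118, 112 and 119 counts per 100 counts of Ythdf1 in the controls and 86.6, 89.7 and 87.4 in KD, lower in 3 of 3 KD libraries by 0.41 on the log2 scale (exact permutation test, two-sided, p = 0.1, the smallest possible; 0.167 adjusted over the 5 ratios). For Ythdf2 the ratio to Ythdf1 was 56.8, 56.2 and 57.8 in the controls and 58.6, 56.3 and 54.7 in KD, with overlapping groups (log2 difference −0.01, exact permutation p = 0.9, two-sided; 0.9 adjusted). The 3 genes are paralogs, and how reads matching more than one of them were counted is not given in the sources used here.

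The study sets the reader YTHDF2 and the eraser ALKBH5 against each other in the stability of LINC00115. It does so through assays of m6A, YTHDF2 binding and RNA decay after knockdown. The values here are transcript counts of the pair, without a row for LINC00115, so they do not bear on that relation. In these libraries the counts of the pair moved apart. Ythdf2 had 19.9, 23.0 and 22.3 counts per 100 counts of Alkbh5 in the controls and 35.5, 35.2 and 35.4 in KD. The SD of the ratio was 0.133 in KD and 1.61 in the controls. Each SD rests on 3 libraries, and whether the spreads differ was not tested. The ratio was 1.63-fold higher in KD, 0.70 on the log2 scale, and higher in 3 of 3 KD libraries (exact permutation test, two-sided, p = 0.1, the smallest possible; 0.167 adjusted over the 5 ratios). This difference restates the rise of Ythdf2 (log2 fold change 0.36) and the fall of Alkbh5 (−0.34). Among all genes tested, 75.6% did not overlap between the groups, so the separation was not shown to be particular to this pair.

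**Figure D3:**
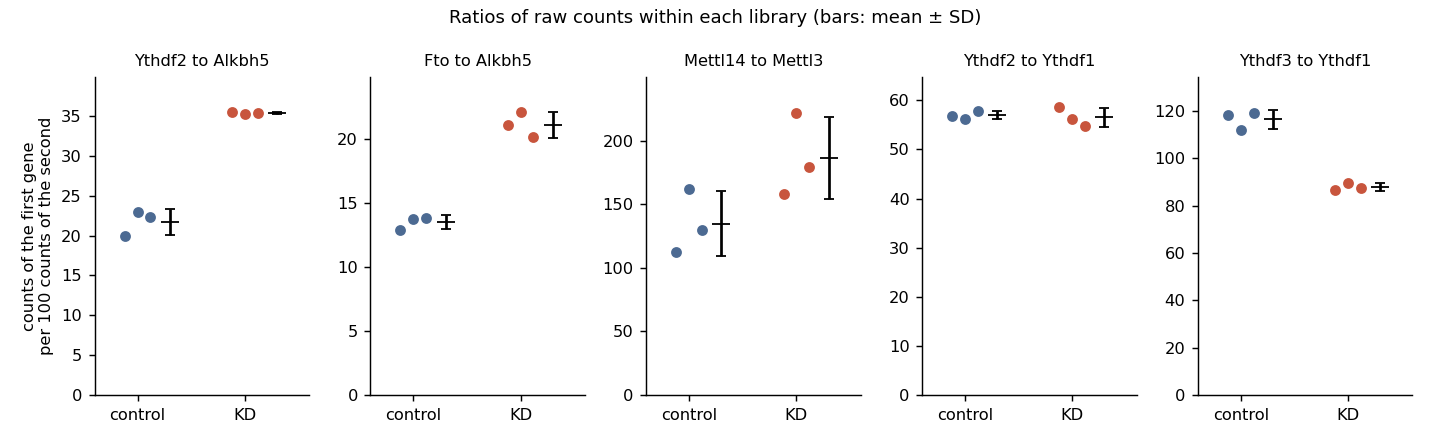
Counts of one member per 100 counts of another (vertical axes, each from 0) within each of the 3 control and 3 KD libraries, with the mean ± SD of the group as bars. The groups are apart for Ythdf2 to Alkbh5 (means 21.7 and 35.4), Fto to Alkbh5 (13.5 and 21.1) and Ythdf3 to Ythdf1 (116 and 87.9), and overlap for Mettl14 to Mettl3 and Ythdf2 to Ythdf1.

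The readers of the YTHDC type differed from each other. Ythdc2, the helicase reader known for its role in germ cells, showed the largest change of the 10 members. It was counted 404, 509 and 461 times in the controls and 835, 857 and 869 times in KD, or 10.7, 13.5 and 12.2 against 21.6, 23.3 and 22.9 normalized CPM. The log2 fold change was 0.90 (edgeR's quasi-likelihood test, adjusted p = 1.28e-10, standard error 0.092, 95% interval 0.71 to 1.08), an increase of 86.2%, and 24.6% of all genes tested changed by more. Although it stayed under a fold change of 2 in each of the 14 alternative fits, its interval included that value. Ythdc1, the nuclear reader, had 87.6, 103 and 98.1 normalized CPM in the controls and 89.6, 106 and 91.2 in KD. Its groups overlapped, and the log2 fold change was −0.0054 with a 95% interval from −0.12 to 0.11 (adjusted p = 0.934, edgeR's quasi-likelihood test).

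Around the 10 members, 48 related genes in 7 lists were examined, of which 46 were tested. Of these, 19 fell, 13 rose and 14 did not pass at an adjusted p under 0.05, beside the 36.7% of all genes in each direction, and their median log2 fold change was −0.024. The genes past a fold change of 2 were 2, both higher, against 10.2% of all genes higher by this rule. They were Mat2a and Alkbh1.

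Mat2a encodes the catalytic subunit of the enzyme that makes S-adenosylmethionine, the methyl donor of the writers. It had 211, 219 and 214 normalized CPM in the controls and 499, 461 and 490 in KD, with no overlap. The log2 fold change was 1.17 (edgeR's quasi-likelihood test, adjusted p = 2.51e-25, standard error 0.035). The other 3 genes of S-adenosylmethionine supply all fell, namely the regulatory subunit Mat2b (log2 fold change −0.63), the hydrolase of S-adenosylhomocysteine Ahcy (−0.19) and its relative Ahcyl1 (−0.12). These are few genes, and 36.7% of all genes tested were lower. Larger absolute changes than those of Ahcy and Ahcyl1 were found for 77.0% and 84.8% of the genes tested. Mettl16, a methyltransferase known to act on the Mat2a transcript, rose with a log2 fold change of 0.24 (adjusted p = 0.000199, edgeR's quasi-likelihood test).

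Alkbh1, a dioxygenase of the same AlkB family as Alkbh5 and Fto that acts on tRNA among other substrates, had 8.63, 8.37 and 7.41 normalized CPM in the controls and 19.8, 19.6 and 18.2 in KD. Its log2 fold change of 1.24 (edgeR's quasi-likelihood test, adjusted p = 3.86e-13, standard error 0.10) was opposite in sign to that of Alkbh5. Of the 7 other AlkB genes, the DNA repair enzyme Alkbh2 (log2 fold change −0.37) and the mitochondrial Alkbh7 (−0.45) fell, Alkbh1 rose and 4 did not pass. Of all genes tested, 36.7% were lower and 36.7% higher. For Alkbh7 the groups overlapped, with 5.71, 5.96 and 4.79 normalized CPM in the controls and 4.94, 2.78 and 4.29 in KD. Its adjusted p was 0.0322 (edgeR's quasi-likelihood test).

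**Figure D4:**
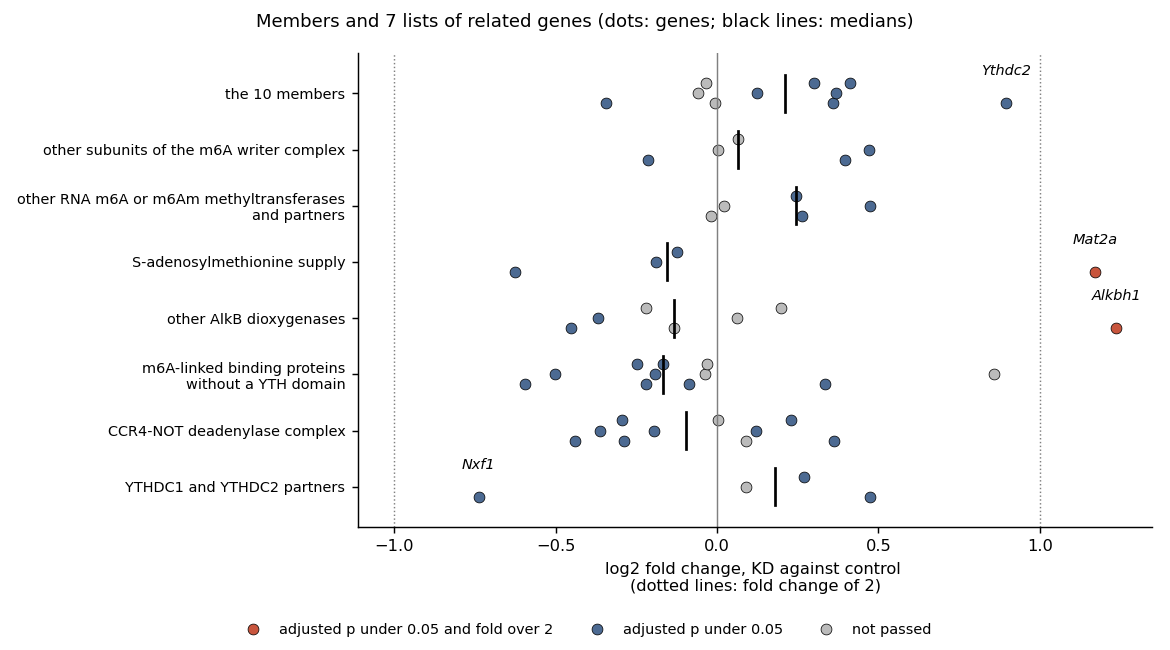
Log2 fold change, KD against control (horizontal axis), of the 10 members and of the tested genes of 7 related lists; each dot is a gene, coloured by whether it passed the test and a fold change of 2 (dotted lines), and black lines are list medians. Mat2a at 1.17 and Alkbh1 at 1.24 are the only dots past a fold change of 2, and the medians run from −0.17 for the binding proteins without a YTH domain to 0.24 for the other methyltransferases.

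The other subunits of the writer complex also went in both directions. Rbm15 and Rbm15b, which guide the complex to RNA, rose (log2 fold changes 0.47 and 0.40), the E3 ligase Cbll1 fell (−0.21), and the scaffold Virma (0.064) and Zc3h13 (0.0025) did not pass. Among other RNA methyltransferases and their partners, 3 of 5 rose, and Mettl5 (−0.018) and Pcif1 (0.022) did not pass. Trmt112, an activator of several methyltransferases, rose most (0.48). These counts, and those of the lists below, are small and stand beside the 36.7% of all genes that were lower and the 36.7% that were higher.

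Lists of proteins that act on marked RNA also held genes of both directions. Of 11 proteins linked to m6A that lack a YTH domain, 7 fell, 1 rose and 3 did not pass, with a median log2 fold change of −0.17. Igf2bp3 had the largest fitted change (0.86) on 5 to 33 counts a library and did not pass (edgeR's quasi-likelihood test, adjusted p = 0.186). Of those that passed, Rbmx, an RNA-binding protein of the spliceosome, fell most (−0.59), Hnrnpa2b1 fell by 0.50 on the log2 scale, and Elavl1, which stabilizes mRNAs, rose (0.33). Of 10 subunits of CCR4-NOT, the deadenylase that YTHDF2 recruits, 5 fell, 3 rose and 2 did not pass. Cnot8, a catalytic subunit, fell most (−0.44), and Cnot1, the scaffold that YTHDF2 binds, rose (0.23). Among partners of YTHDC1 and YTHDC2, the mRNA export receptor Nxf1 fell by 0.74 on the log2 scale from 174 ± 3.15 to 104 ± 3.43 normalized CPM (SD, n = 3 each), whereas the splicing factors Srsf3 and Srsf10 rose (0.47 and 0.27). The germ cell partners Meioc and Rbm46 were under the expression filter, with at most 4 and 1 counts in any library.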

How the data were processed

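Total RNA of 6 libraries was sequenced, with the library kit named differently in the labels and in the paper's methods. The authors trimmed adapters, mapped reads with HISAT2 (hg19 in the paper's methods, hg38 in the submitters' processing notes, which also name featureCounts and DESeq2) and deposited whole-number read counts for 22989 genes without normalization. Annotation and strand setting are not given in the sources used here, so reads of overlapping antisense genes cannot be told apart. Columns were matched to samples by the description in the labels. The members and lists were chosen with earlier results of these data known.

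The test was edgeR 4.0.16 under R 4.3.3, with filterByExpr (minimum count 10, minimum total 15; 13497 genes kept), TMM scaling, the quasi-likelihood test with group only, and Benjamini-Hochberg adjustment over all genes tested. The thresholds are those of the paper's methods, an adjusted p under 0.05 and a fold change over 2. The standard error is the absolute log2 fold change over the root of F, and 95% intervals use its t distribution. Ratios were tested by exact permutation. All 10 members are named whatever their values. Of the related lists, the genes past both thresholds and the largest change of each list among genes with an adjusted p under 0.05 were named, and other genes were picked once their values were known.

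The fit was tested on simulated data. Library pairs within a group differed by 3.88 to 7.60 times sampling noise (chi-square over its degrees of freedom), and none was counted as a copy. The labels do not say whether replicates are separate cultures, so p-values measure only the spread between these libraries. Alternatives were other scalings, filters, libraries left out, a replicate block, DESeq2 1.42.0 and a test against a fold of 1.2.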

Additional observations from a re-analysis of the deposited data

How the results depend on the processing

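Across 14 alternative fits, Alkbh5, Mettl14, Ythdf1, Ythdf2 and Ythdc2 kept their direction and stayed at an adjusted p under 0.05, with log2 fold changes from −0.39 to −0.32, 0.36 to 0.47, 0.33 to 0.42, 0.32 to 0.40 and 0.82 to 0.98. Fto kept its direction and passed in 13, and Wtap passed in 9. With 1 library left out, 5 or 6 members were higher and 1 lower. Members near 0 changed sign: Mettl3 ranged from −0.15 to 0.067 and Ythdc1 from −0.078 to 0.047 with 1 library left out, and Ythdc1 was 0.0011 with RLE scaling and 0.0025 with DESeq2. The log2 ratio of Ythdf2 to Ythdf1 ranged from −0.037 to 0.013 with 1 library left out. With the fold change over 2 required, 0 members were lower and 0 higher, in edgeR (also at an unadjusted p under 0.05) and in DESeq2. Over all genes, 1347 were lower and 1381 higher past both thresholds. These were 4960 and 4952 at an adjusted p alone, 919 and 903 where each sample needed at least 10 counts, so that fewer genes are tested, and 1570 and 1793 with no low-count filter. The cause of the sign changes was not tested.

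Same-numbered libraries did not deviate together (correlations from −0.021 to 0.042), so the numbers do not pair them. With the replicate number as a block, 1316 genes were lower and 1360 higher, and 1 member was lower and 6 higher. The block left every member on its side of the threshold. For the ratios the block allows no exact p under 0.25.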
